A study of Rattus norvegicus with 4 samples.

Results

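Chemokines are small secreted proteins that draw leukocytes toward a site of injury, and 10 chemokine genes of rat macrophages are described here: 7 of the CC class (Ccl2, Ccl3, Ccl4, Ccl5, Ccl7, Ccl9 and Ccl20) and 3 of the CXC class (Cxcl1, Cxcl2 and Cxcl10). They were chosen by name, and all 10 had probes on the array, 11 probes printed at 32 spots, out of 16581 named genes and 45598 gene probes. The cells were NR8383, a line of alveolar macrophages that grew from a lung wash of a normal rat and is kept partly floating and partly attached. In the 4 cultures described (replicates 1 to 4 of 1 group), cells at passage 20 in medium with 15% serum, seeded 48 h before, were exposed for 4 h to NM105, titanium dioxide particles that mix anatase and rutile, at 3 cm2 of particle surface per cm2. The series set such cultures beside cultures kept without particles, which were not analysed here. Every value below is therefore a level or a spread among exposed cultures, and none is a response to the particles.

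The CC and CXC classes are named for the first cysteines of the mature protein, which are adjacent in one class and separated by a single residue in the other. Each acts through G-protein-coupled receptors on the target cell, and each is cleared or trimmed by decoy receptors and proteases. Alveolar macrophages are a main source of chemokines in the lung, where CC ligands call in monocytes and lymphocytes and CXC ligands with a Glu-Leu-Arg motif call in neutrophils. Transcription of many of these genes is switched on by NF-κB, whose binding site in DNA is called a κB site.

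A look at the DNA before each gene shows that letters of this kind were present in every promoter that could be read. RefSeq promoter windows of the GRCr8 assembly, 250 bases before to 50 bases after the start of the gene, were at hand for 6 of the 10 genes (Ccl7, Ccl9, Ccl20, Cxcl1, Cxcl2 and Cxcl10). A loose κB pattern (GGG, any 5 bases, then CC), searched on both strands, occurred in 6 of 6, and in 47.3% of 33469 windows of the same length. The 5 windows shown are those of the CXC genes, of Ccl9, which varied most among the genes with a window and signal on all arrays, and of Ccl20, which gave no signal. Capitals mark each match to the pattern on either strand, and overlapping matches run together.
Cxcl1, GRCr8 chr14:17479272-17479571, minus strand: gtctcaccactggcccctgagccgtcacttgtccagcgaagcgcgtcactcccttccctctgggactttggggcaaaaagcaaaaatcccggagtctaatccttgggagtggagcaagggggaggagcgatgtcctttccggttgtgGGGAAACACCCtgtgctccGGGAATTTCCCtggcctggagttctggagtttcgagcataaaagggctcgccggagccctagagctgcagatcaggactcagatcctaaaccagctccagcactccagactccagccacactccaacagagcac
Cxcl2, GRCr8 chr14:17467206-17467505, minus strand: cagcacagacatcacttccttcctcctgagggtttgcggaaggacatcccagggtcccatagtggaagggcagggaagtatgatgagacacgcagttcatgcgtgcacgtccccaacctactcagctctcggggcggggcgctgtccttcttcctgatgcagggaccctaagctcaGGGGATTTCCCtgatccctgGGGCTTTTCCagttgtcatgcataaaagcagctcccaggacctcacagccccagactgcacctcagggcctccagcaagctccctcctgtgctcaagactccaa
Cxcl10, GRCr8 chr14:15988816-15989115, plus strand: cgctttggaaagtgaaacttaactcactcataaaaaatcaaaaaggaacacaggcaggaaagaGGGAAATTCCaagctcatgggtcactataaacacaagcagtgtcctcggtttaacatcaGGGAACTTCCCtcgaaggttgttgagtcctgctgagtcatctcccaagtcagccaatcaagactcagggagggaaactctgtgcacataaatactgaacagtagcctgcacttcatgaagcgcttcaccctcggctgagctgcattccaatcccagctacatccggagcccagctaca
Ccl9, GRCr8 chr10:68868828-68869127, minus strand: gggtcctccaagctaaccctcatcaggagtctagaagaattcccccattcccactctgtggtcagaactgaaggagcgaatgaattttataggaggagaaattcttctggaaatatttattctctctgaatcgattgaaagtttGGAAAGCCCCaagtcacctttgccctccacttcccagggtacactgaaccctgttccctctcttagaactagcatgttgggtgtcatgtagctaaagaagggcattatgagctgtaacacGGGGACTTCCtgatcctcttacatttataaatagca
Ccl20, GRCr8 chr9:91836909-91837208, plus strand: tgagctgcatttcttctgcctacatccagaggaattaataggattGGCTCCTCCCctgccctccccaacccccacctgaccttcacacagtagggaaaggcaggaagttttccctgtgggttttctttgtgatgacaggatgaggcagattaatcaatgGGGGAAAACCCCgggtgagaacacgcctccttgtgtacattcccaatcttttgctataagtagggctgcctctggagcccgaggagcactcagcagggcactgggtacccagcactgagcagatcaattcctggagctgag
In Cxcl1 and Cxcl2, which are direct neighbours on chromosome 14, each held a match shortly before the start on the gene's own strand, GGGAATTTCC from base -84 to -75 in Cxcl1 and GGGATTTCCC from -73 to -64 in Cxcl2. Cxcl10 held GGGAAATTCC at -187 to -178 and GGGAACTTCC at -128 to -119. Ccl7 held 1 match, GGGATCTTCC, on the other strand at -59 to -50. Ccl20 held an overlapping run of matches from -91 to -80, although its probes gave no signal. Other patterns were less common: the AP-1 pattern TGANTCA, on both strands, was in Ccl7 and Cxcl10 and in 7.33% of all windows, and the interferon-response pattern (GAAA, any 2 bases, then GAAA), on both strands, was in Cxcl10 alone of the 6 and in 3.92% of all windows. TATAAA on the gene's strand was in Ccl7, Ccl9 and Cxcl10 and in 8.8% of all windows. It lay at -34 to -29 in Ccl7, at -162 to -157 in Cxcl10 and after the start, at 40 to 45, in Ccl9. These are matches of letters in short windows and show no binding.

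Most of the chemokine genes gave signal. Detection means that over 50% of the spots of at least 1 of a gene's probes carried Agilent's flag for signal well above background on that array. By this rule 7 of the 10 passed on every array (Ccl2, Ccl3, Ccl4, Ccl5, Ccl9, Cxcl2 and Cxcl10), Ccl7 passed on 2 arrays, Cxcl1 on 3 and Ccl20 on 0, while 35.2% of the 16581 named genes were detected on all 4. Signal is given below in intensity units as the scanner software reported it, and as a level, the log2 signal relative to the 75th percentile of the same array over probes detected on all 4 arrays. Levels place 1 gene on different arrays. Each probe has its own brightness, so levels of different genes are not compared.

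The arrays themselves differed in brightness. The number of probes detected ran from 10809 on replicate 2 to 14407 on replicate 1, and the 75th percentile of signal ran from 585 units on replicate 2 to 1431 on replicate 1. The 99th percentile of the negative controls lay between 5.07 and 5.96 units on the 4 arrays. No spot was saturated. The SD over the arrays of 8 spike-in probes, on unscaled log2 signal, lay between 0.0533 and 0.292; the part of labelling and hybridisation in the spreads below was not tested. The cells carried 5 of 6 macrophage markers on all 4 arrays (Cd68, Csf1r, Itgam, Cd14 and Ptprc, without Adgre1) and 4 of 5 markers of alveolar macrophages (Pparg, Siglec1, Fabp4 and Fabp5, without Marco). Of 12 measured markers of neutrophils, T cells, epithelium and fibroblasts, 10 gave no detection on any array, S100a8 was detected on 2 arrays and Col1a1 on 1.

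**Figure D1:**
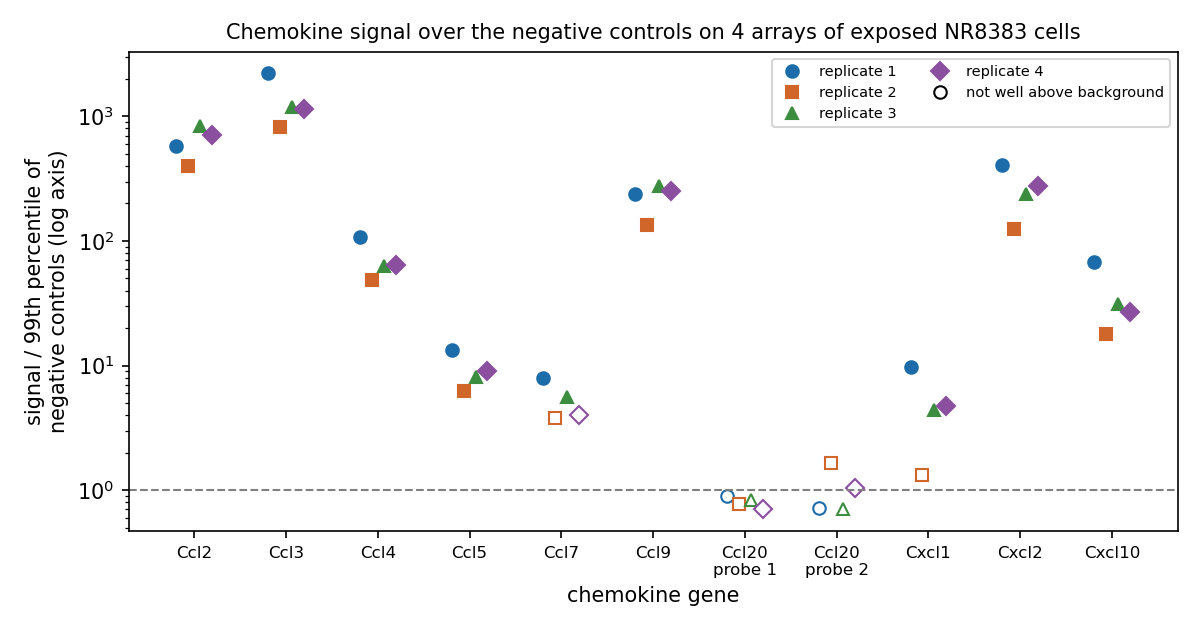
Signal of each chemokine probe on each array, divided by the 99th percentile of that array's negative controls, on a log axis. Filled symbols are detected and open ones are not. The 2 Ccl20 probes lie near the dashed line at 1, and Cxcl1 falls to 1.33 times the negative controls on replicate 2.

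Among the ligands of CCR2, which draws monocytes out of the blood, Ccl2 gave strong signal and Ccl7 weak signal. Ccl2 (NM_031530) encodes the monocyte chemoattractant MCP-1. Its probe was printed at 10 spots, with geometric means of 3259, 2201, 4284 and 4192 units on replicates 1 to 4. Set against each array's own 75th percentile, these became levels of 1.19, 1.91, 2.48 and 2.33, a mean of 1.98 ± 0.58 (SD, n = 4). Replicate 1 was thus lowest in level although its raw signal was above that of replicate 2, because the whole array was brighter. In bulk RNA, fewer cells that express a gene and less of its RNA per cell cannot be told apart.

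In level, the spots of Ccl2 did not overlap between replicate 1 and the other arrays. They ran from 0.56 to 1.54 on replicate 1, from 1.78 to 2.04 on replicate 2, from 2.41 to 2.56 on replicate 3 and from 2.22 to 2.46 on replicate 4. Replicates 3 and 4 overlapped with each other. Before scaling, the spots of replicate 1, from 2102 to 4173 units, overlapped with those of every other array. These ran from 2012 to 2412 units on replicate 2, from 4085 to 4515 on replicate 3 and from 3872 to 4581 on replicate 4. One spot on replicate 2 was marked as an outlier and left out, which leaves 9 there. The spots also scattered most on replicate 1, with an SD of 0.33 against 0.12, 0.052 and 0.074 on replicates 2 to 4. Over the 969 probes printed 10 times and detected on all arrays, the median spot SD was 0.12 on replicate 1, and that of Ccl2 was above 91.0% of them there. On replicate 3 it was above 24.1%.

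**Figure D2:**
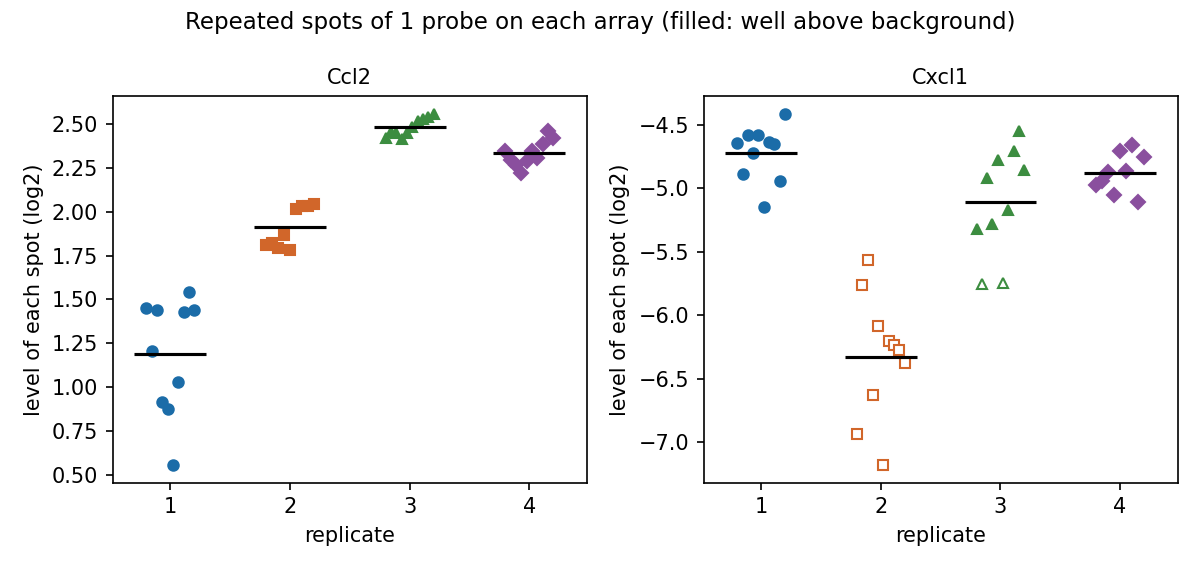
Level of each spot of the Ccl2 and Cxcl1 probes on the 4 arrays, in log2 units, drawn within an array in the order of the spot's row, with the mean as a line. Filled symbols are spots well above background. The Ccl2 spots of replicate 1 reach 1.54 at most and all others start at 1.78, and 0 of the 10 Cxcl1 spots were well above background on replicate 2.

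Differences between arrays were tested with limma on the 1594 probes printed at least 2 times and detected throughout, taking the repeated spots as the source of error. All spots of an array share the RNA of 1 culture, so the test sets culture, extraction, labelling and hybridisation together against printing error. A probe was called when its adjusted p was under 0.05 and its highest array was at least 2-fold above its lowest. Of the chemokine probes, 3 could be tested and 1 was called, against 4.64% of all 1594 probes. That one was Ccl2, with a range of 1.29 on the log2 scale (2.45-fold) between replicates 3 and 1 (limma moderated F, adjusted p = 2.72e-17). Without a fold minimum 85.2% of all probes passed, so the p-value alone sets little apart. Without replicate 1 the range of Ccl2 was 1.49-fold and it was no longer called (limma adjusted p = 1.42e-13).

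Ccl7 (NM_001007612), whose product MCP-3 also binds CCR2 and other CC receptors, lies directly beside Ccl2 on chromosome 10. Its probe had 2 spots, with mean signals of 44.9, 20.6, 28.5 and 24.1 units on replicates 1 to 4, which is 3.77 to 7.98 times the 99th percentile of the negative controls. Both spots were well above background on replicates 1 and 3, and 1 of 2 on replicates 2 and 4. The levels of -4.99, -4.82, -4.75 and -5.11 overlapped within the scatter of the spots, whose SD reached 0.47 on replicate 2. Relative to Ccl7 on the same array, Ccl2 was higher by 1.05 on replicate 3 than on replicate 1, a difference that does not depend on the scaling of whole arrays.

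The ligands of CCR1 and related receptors, which attract monocytes, macrophages and T cells, differed in how far their levels spread between arrays, with SDs from 0.08 for Ccl4 to 0.47 for Ccl9. Ccl3 (NM_013025) encodes MIP-1α. Its probe, printed at 2 spots, gave 12472, 4468, 6054 and 6805 units on replicates 1 to 4. The levels were 3.12, 2.93, 2.98 and 3.03, a mean of 3.02 ± 0.08 (SD, n = 4). All arrays lay within 1.14-fold of each other, and the difference did not pass the test between arrays (limma moderated F, adjusted p = 0.548). Under quantile normalization the range was 1.40-fold (limma adjusted p = 0.042), and the adjusted p under the other alternatives ran from 0.316 to 0.923.

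Ccl4 (NM_053858), which encodes MIP-1β and is the direct neighbour of Ccl3, was as even. Its single spot gave 604, 267, 317 and 381 units, or levels of -1.24, -1.13, -1.28 and -1.13, with a mean of -1.19 ± 0.08 (SD, n = 4). Of the 5830 named genes detected on all 4 arrays, 4.32% had a lower SD than Ccl4 and 5.08% a lower one than Ccl3. The order of the arrays within these narrow ranges changed with the scaling: the lowest array of Ccl4 was another one under all 4 other scalings, and that of Ccl3 under 2 of 4.

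Ccl5 (NM_031116), known as RANTES, was dimmer. Its 2 spots averaged 74.4, 34.3, 41.0 and 53.5 units on replicates 1 to 4, between 6.26 and 13.2 times the 99th percentile of the negative controls. Levels were -4.27, -4.09, -4.23 and -3.96, a mean of -4.14 ± 0.14 (SD, n = 4), and the arrays did not pass the test (limma moderated F, adjusted p = 0.342). After normexp background correction with an offset of 50 the range was 1.77-fold (limma adjusted p = 0.000302), still below the 2-fold minimum, and the SD of Ccl5 was then 0.36, beside 0.41 for Ccl9. Over the other alternatives the adjusted p ran from 0.0952 to 0.693.

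Ccl9 (NM_001012357) encodes a CC chemokine that acts through CCR1 in the mouse, and it lies directly beside Ccl5 on chromosome 10. It had 1 spot, with 1336, 740, 1402 and 1506 units on replicates 1 to 4. The levels were -0.10, 0.34, 0.87 and 0.86, a mean of 0.49 ± 0.47 (SD, n = 4). Replicate 1 was lowest, replicate 2 next, and replicates 3 and 4 stood together, which is the order seen for Ccl2. With 1 spot an array, no test between arrays could be made. The highest array was 1.96-fold above the lowest.

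Of the other chosen chemokine genes detected on all arrays, Ccl9 moved most closely with Ccl2. The root mean square difference between the deviations of 2 genes from their own means, over the 4 arrays, was 0.125 for Ccl9 against Ccl2, where a gene with no deviation at all would be at 0.502. It was 0.457 for Ccl5, 0.497 for Ccl4, 0.511 for Cxcl2, 0.551 for Ccl3 and 0.683 for Cxcl10. Ratios within an array give the same picture without any scaling: relative to replicate 1, Ccl2 gained 0.29, 0.32 and 0.19 over Ccl9 on replicates 2 to 4, and 0.92, 1.44 and 1.24 over Ccl3. Of the 5823 other genes detected on all arrays, those nearest to Ccl2 by this measure included Maip1 at 0.027, Ube2b, which encodes a ubiquitin-conjugating enzyme, at 0.040, Smim3 at 0.069 and P3h4 at 0.077. Each was nearer than Ccl9. With 4 arrays and so many genes, such likeness is a description of these arrays.

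**Figure D3:**
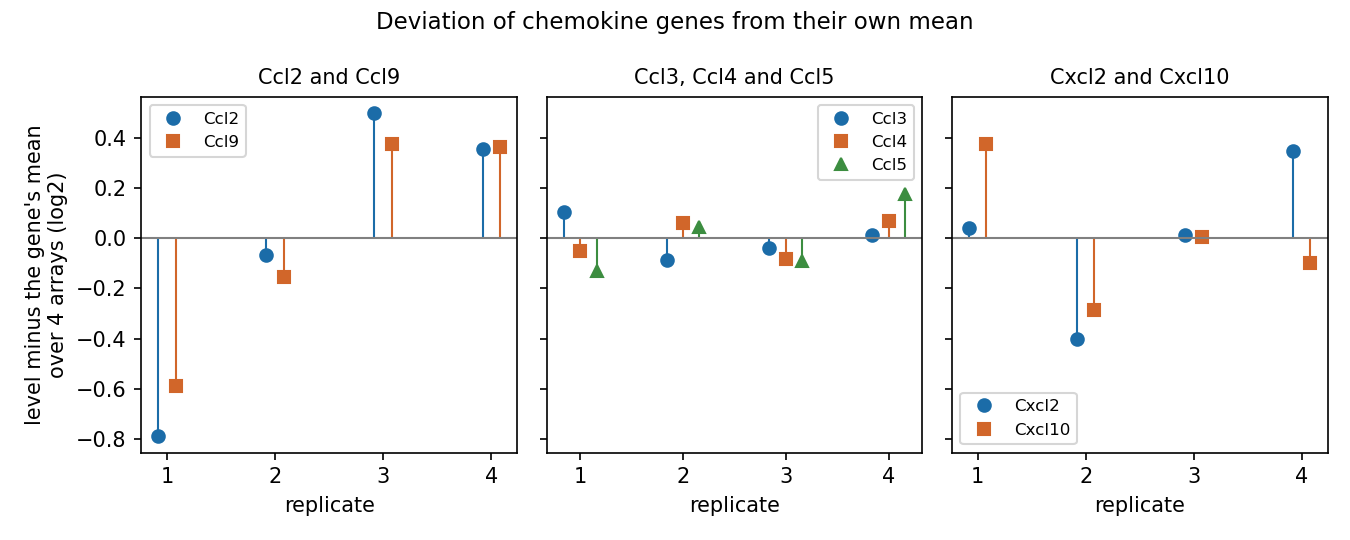
Level of 7 chemokine genes on each array minus the gene's own mean over 4 arrays, in log2 units. Ccl2 and Ccl9 are lowest on replicate 1, Ccl3, Ccl4 and Ccl5 stay within 0.2 of their means, and Cxcl2 and Cxcl10 are lowest on replicate 2.

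The CXC genes were lowest on replicate 2, as were the CC gene Ccl3 and 32.2% of all detected genes. Cxcl2 (NM_053647), whose product MIP-2 draws neutrophils through CXCR2, had 1 spot with 2278, 686, 1198 and 1638 units on replicates 1 to 4. Its levels were 0.67, 0.23, 0.64 and 0.98, a mean of 0.63 ± 0.31 (SD, n = 4), with replicate 2 lowest and replicate 4 highest, 1.68-fold apart.

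Cxcl1 (NM_030845) encodes CINC-1, the rat neutrophil attractant that acts on the same receptor. Its probe was printed at 10 spots and stood near the limit of detection, with geometric means of 54.3, 7.29, 22.2 and 28.2 units on replicates 1 to 4. Of the spots, 10 of 10 were well above background on replicate 1, 0 of 10 on replicate 2, 8 of 10 on replicate 3 and all 9 spots in use on replicate 4. The levels were -4.72, -6.33, -5.11 and -4.88. On replicate 2 the signal was 1.33 times the 99th percentile of the negative controls, so that value is little more than background and no fold is given against it. Over replicates 1, 3 and 4 alone, where Cxcl1 could be tested, the range was 1.32-fold and was not called (limma moderated F, adjusted p = 0.0187). When dim probes were let in, Cxcl1 was called over the 4 arrays (limma adjusted p = 1.25e-11), a call that rests on replicate 2.

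Cxcl10 (NM_139089) encodes IP-10, an interferon-induced ligand of CXCR3 on activated T cells. Its single spot gave 382, 98.7, 158 and 160 units. Levels were -1.91, -2.57, -2.28 and -2.38, a mean of -2.28 ± 0.28 (SD, n = 4), and replicate 1 was highest and replicate 2 lowest, 1.58-fold apart. Its window, printed above, was the one of 6 with the interferon-response pattern.

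Ccl20 (NM_019233), the ligand of CCR6, was measured by 2 probes of 1 spot each, and 0 of their 8 spots over the 4 arrays were well above background. The first gave 5.04, 4.23, 4.22 and 4.17 units on replicates 1 to 4, all below the 99th percentile of the negative controls. The second gave 4.07, 9.11, 3.56 and 6.16 units and exceeded that percentile on replicates 2 and 4, by 1.66-fold at most. The transcript was not detectable at this signal, which does not show that it was absent.

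The 7 genes detected on every array differed widely in their spread. Their median SD was 0.28 on the log2 scale, from 0.08 for Ccl4 to 0.58 for Ccl2, beside a median of 0.23 and quartiles of 0.16 and 0.32 over the 5830 named genes detected on all 4 arrays. The SD of Ccl2 exceeded that of 97.1% of these genes, that of Ccl9 exceeded 92.4%, that of Cxcl2 72.6%, that of Cxcl10 65.8% and that of Ccl5 20.0%. Spread depends on brightness, and over the 278 detected genes within 0.5 of the mean level of Ccl2 the median SD was 0.17. Among detected genes within 0.5 of its own mean level, the SD of Ccl2 exceeded 99.3% and that of Ccl9 97.3%. By the same measure that of Cxcl2 exceeded 87.6%, that of Cxcl10 62.1% and that of Ccl5 8.36%. A range of 2-fold or more was found for 1 of the 7, Ccl2, and for 9.06% of the 5830.

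**Figure D4:**
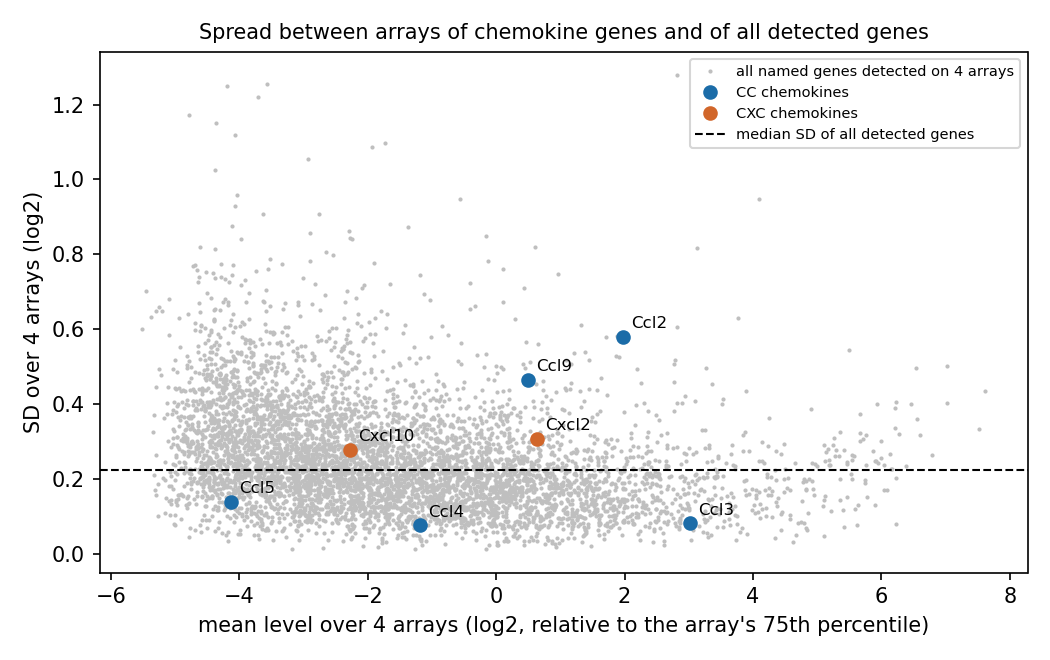
SD over 4 arrays against mean level for the 5830 named genes detected on all arrays (grey) and the 7 chemokine genes among them. The dashed line is the median SD of 0.23. Ccl2 and Ccl9 lie well above it and Ccl3, Ccl4 and Ccl5 below.

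No single array was low for all chemokines. Replicate 1 was the lowest array for 3 of the 7 (Ccl2, Ccl5 and Ccl9), as for 25.0% of all detected genes. Replicate 2 was lowest for 3 (Ccl3, Cxcl2 and Cxcl10), as for 32.2%, and replicate 3 for Ccl4. Replicate 1 was highest for 2 (Ccl3 and Cxcl10), as for 37.8% of all detected genes, and replicate 3 for 2 (Ccl2 and Ccl9), as for 19.2%. Replicate 4 was highest for 3 (Ccl4, Ccl5 and Cxcl2), as for 878 of the 5830 detected genes. For Ccl2, Ccl5, Ccl9, Cxcl2 and Cxcl10 the lowest array stayed the same under all 4 other scalings. The highest array stayed the same under all 4 for Ccl2, Cxcl2 and Cxcl10. It did so under 3 for Ccl5, under 2 for Ccl3 and Ccl9, and under 1 for Ccl4. Such scalings shifted the median of all detected genes by up to 0.19 between replicates 2 and 1, more than the whole range of Ccl4.

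Few other chemokine ligands were detected. Of 13 other CC ligands, Ccl6 and Ccl22 were detected throughout and 11 on no array. Ccl6, a CC ligand of rodent myeloid cells, was even at 0.01 ± 0.10 (SD, n = 4). Its levels of -0.10, -0.05, 0.11 and 0.10 on replicates 1 to 4 had the array order of Ccl2 and Ccl9, within a range of 1.15-fold. Ccl22, a ligand of CCR4 on regulatory and helper T cells, was at 1.16 ± 0.51 from 1 of its 3 probes. The others were not detected on every array. Of 12 measured CXC, XC and CX3C ligands, Cxcl16, which is made as a membrane-bound protein, was detected on all arrays at -3.11 ± 0.24, the platelet factor gene Pf4 on replicate 1 only of the 4 arrays, and 10 on none, among them Cxcl9 and Cxcl11, which share the receptor of Cxcl10.

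The receptors for several of these ligands gave no signal. Of 18 measured chemokine receptors, 5 were detected throughout, Ccr9 on 1 array and 12 on none, among them Ccr2, Ccr6, Cxcr2 and Cxcr3. Those detected throughout included Ccr1 at -2.70 ± 0.48, the chemerin-binding Ccrl2 at -3.56 ± 0.39, the fractalkine receptor Cx3cr1 at -4.18 ± 0.67 and Cxcr1 at -3.81 ± 0.17 (SD, n = 4). Neither of 2 measured decoy receptors, Ackr2 and Ackr3, was detected on any array.

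Of the lists around the chemokines, those of receptor signalling and of mRNA decay had 75% and 83.3% of their measured genes detected on every array and that of proteases 33.3%, beside 35.2% of all named genes. Of 12 measured genes of receptor signalling and its shutdown, 9 were detected on all arrays: the G-protein genes Gnai2, at 4.30 ± 0.10, Gnai3, at -2.35 ± 0.29, and Gnb1, at 0.80 ± 0.14, the arrestin genes Arrb1, at -2.80 ± 0.23, and Arrb2, at -1.74 ± 0.18, the receptor kinase gene Grk2, at -0.41 ± 0.20, the GTPase gene Rac2, at 0.81 ± 0.15, and the G-protein regulators Rgs2, at -2.45 ± 0.18, and Rgs14, at -2.82 ± 0.22. The 3 probes of Gnb1 disagree, with the brightest lowest on replicate 1, where the others were highest. The 2 probes of Gnai2 were lowest on different arrays, the brighter on replicate 4 and the other on replicate 1. Pik3cg, Rgs1 and Rgs16 were detected on none. Of 6 measured regulators of chemokine mRNA decay, 5 were detected throughout and Zfp36, which encodes tristetraprolin, on no array. The stabilising RNA-binding protein gene Elavl1 was at 0.30 ± 0.16, the endonuclease gene Zc3h12a at -2.48 ± 0.12, Hnrnpd at -4.39 ± 0.62 and the tristetraprolin relatives Zfp36l1 and Zfp36l2 at -3.77 ± 0.49 and 1.37 ± 0.28. The 3 probes of Zfp36l2 disagree, with the brightest lowest on replicate 4 and the others lowest on replicates 1 and 2. Of 6 measured proteases that trim or shed chemokines, Mmp9, at -1.45 ± 0.23, and Mmp12, at -3.78 ± 0.57, were detected on all arrays. Adam17 was detected on 2 arrays, Adam10 on 1, and Dpp4 and Ctsg on none.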

How the data were processed

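Total RNA of 4 exposed cultures, 100 ng each with a RIN above 7.5, was labelled with Cy3 and hybridised to 1-colour Agilent arrays, per the labels' protocols. The arrays lay on 1 slide. The deposited spot intensity was made with Agilent Feature Extraction 11.0.1.1 (protocol GE1_1100_Jul11, design 074036), with background subtraction and detrending inside each array, per the file headers, and array brightness still differs.

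Control spots and spots marked as outliers (486 to 723 of 58717 gene spots an array) were left out of intensities. Log2 values of a probe's spots were averaged and set against the array's 75th percentile over probes detected on all 4 arrays, since under 50% of probes were detected (22.9%). Probes were named by matching accessions without version to the RefSeq table of GRCr8, used for names and neighbours; 21109 of 45598 matched. A gene's level is that of its brightest probe. The test used lmFit and eBayes of limma 3.58.1 in R 4.3.3, with the moderated F taken from the spots of each probe and Benjamini-Hochberg adjustment over all 1594 probes. The test was tried on simulated spots of these 1594 probes, by adjusted p alone and without the fold minimum. It found 98 of 100 probes with a log2 change of 1 and 99 of 100 with a log2 change of 2. Of 1394 simulated probes without a change it passed 0.646%. On the real arrays 85.2% of the 1594 probes passed adjusted p alone. The simulated share therefore gives no rate of false calls for the real arrays. The number of arrays limits the precision. By the series' design text the cultures are biological replicates.

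The genes, lists and rules were chosen with earlier results of these data known. Named were all 10 chemokine genes, the list genes detected on all arrays, and the 5 genes nearest to Ccl2; not every gene so picked is reported here. Alternatives were other scalings, normexp on the median spot signal, other detection rules, other fold minima, probe means, leaving out each replicate, and a block for the array's top or bottom. Python 3.11.15, pandas 2.3.3 and matplotlib 3.10.9 drew the figures.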

Additional observations from a re-analysis of the deposited data

How the results depend on the processing

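The number of chemokine genes detected on all arrays was 7, and ran from 7 to 9 under 3 other detection rules, with 9 when signal had to exceed that of 99% of negative controls, and from 7 to 8 with a replicate left out. Their median SD of 0.279 ran from 0.209 to 0.312 under other scalings, corrections and probe rules, and from 0.149 (without replicate 1) to 0.344 (without replicate 3). For single genes, 16 of 63 SDs moved by over 1.5 times, 5 of them for Ccl3; the cause was not tested. That of Ccl2 moved once, to 0.297 without replicate 1, as did that of Ccl9, to 0.304.

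The test called 74 of all probes, and 434 with a fold minimum of 1.5, 1358 with none, 573 without the filter on dim probes and 38 after normexp. With a replicate left out it called 23 to 66. Of the chemokine probes it called 1, 2 without the filter, and 0 to 1 with a replicate left out, with 0 without replicate 1. No paired analysis was possible because the samples form 1 group. Among the chemokine genes, signal over background limits Ccl5, Ccl7, Cxcl1 and Ccl20.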

Other observations

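Among the list genes detected on every array, leaving out the 10 chemokines and the cell type markers, 6 had a range of 2-fold or more between arrays. By list these were 2 of 5 receptors, 2 of 5 regulators of mRNA decay, 1 of 2 other CC ligands and 1 of 2 proteases. The signalling list had 0 of 9, and the other CXC, XC and CX3C ligands 0 of 1. Of the markers, 2 of 5 for macrophages and 0 of 4 for alveolar macrophages had such a range. Over all detected genes the share was 9.06%. The 6 list genes included Ccl22, Cx3cr1, Hnrnpd, Zfp36l1 and Mmp12. All of these but Ccl22 were dim, with mean levels of -4.18, -4.39, -3.77 and -3.78, close to the -4.14 of Ccl5. Over the 969 detected genes within 0.5 of the mean level of Ccl5 the median SD was 0.30, beside 0.23 over all detected genes. The share of 9.06% is over genes of all levels, so it is no measure for dim genes. The ligand gene Ccl22 was at 0.72, 1.42, 1.74 and 0.75 on replicates 1 to 4, so replicate 4, which was high for Ccl2 and Ccl9, was low for Ccl22. Cx3cr1 was at -4.66, -3.29, -4.01 and -4.74, highest on replicate 2. The probe of Zfp36l1, printed at 10 spots, was at -3.30, -4.41, -3.88 and -3.50, lowest on replicate 2, where Cxcl1, Cxcl2 and Cxcl10 were lowest too. Of the list probes in the test between arrays it alone was called (2.15-fold, limma adjusted p = 1.04e-16), against 4.64% of all 1594 probes. The call needs the same 2-fold range by which Zfp36l1 was picked here, so it adds little. Mmp12, the macrophage elastase gene, was at -3.29, -4.33, -4.21 and -3.30. Ccl22, Cx3cr1, Hnrnpd and Mmp12 had 1 spot an array, which allows no test between arrays.

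By Dixon's criterion for 4 samples, an array stood apart for 0 of the 7 chemokine genes detected on all arrays and for 6.02% of 5830 detected genes. With only 7 genes, a count of 0 is near that share and does not set the chemokine genes apart.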
